A study of Mus musculus with 6 samples.

Results

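The genes of the platelet-derived growth factors (PDGF), their receptors and the proteoglycan NG2 were read out in immortalized mouse embryonic fibroblasts (MEFs). They are the rows with the symbols Pdgfra, Pdgfrb, Pdgfrl, Pdgfa, Pdgfb, Pdgfc, Pdgfd and Cspg4, 8 of the 26231 genes in the deposited expression table. These genes were selected with their levels in both lines already known, so their differences between the lines are given below as a description, without p-values, and how many of them the fit across all genes called is given once, beside the share over all genes, with nothing read from it. The difference between replicate numbers, which was not used to select them, was tested.

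The 3 libraries labelled MEF WT (control) and the 3 labelled MEF Nf2 KO came from FVB embryos of approximately 14 days according to the labels, while the methods of the study place the harvest a day earlier. In both groups the MEFs carried Nf2 fl/fl alleles and were immortalized with lentivirus for SV40 large T antigen. The control cells then received a CMV-GFP vector lentivirus, and the Nf2 KO cells a CMV-Cre GFP lentivirus (puro), in which the CMV promoter drives the Cre recombinase that removes the loxP-flanked part of Nf2. Nf2 encodes Merlin, a membrane-cytoskeleton linker and tumor suppressor. Both lines were grown with 10% serum and held for 24 h without serum before RNA extraction. A single line of each kind was described and nothing says that the numbered replicates were separate cultures, so p-values measure only the spread between these libraries, and the deletion, the Cre vector and the separate culture of the lines cannot be told apart.

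Nf2 RNA was at 13.1 to 14.3 RPKM (reads scaled to exon length and to library size) in the control libraries and at 12.9 to 15.4 RPKM in the libraries labelled Nf2 KO. The difference was 0.03 ± 0.10 (SE) on the log2(RPKM + 1) scale, with an adjusted p of 0.987 by limma. Gene-level values also count exons outside the loxP-flanked part, and they gave no check of the labels. Depth, worked out from the steps between low values, was 13460662 to 19285076 reads in replicates 1 and 2 of both lines and 61217405 and 73071729 reads in replicate 3. Same-numbered libraries deviated from their line means together, most closely in replicate 2, and the replicate numbers were treated as pairs. A pairing of replicates 1 and 3 was not shown apart from the shift of replicate 2.

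PDGFs are secreted dimers built from A, B, C and D chains, encoded by Pdgfa, Pdgfb, Pdgfc and Pdgfd. The A and C chains bind mainly the receptor tyrosine kinase PDGFR-alpha (Pdgfra), the D chain mainly PDGFR-beta (Pdgfrb), and the B chain binds both. The C and D chains are secreted in a latent form and become active once a protease removes their CUB domain. In mesenchyme these factors are known as mitogens and chemoattractants, PDGFR-alpha in fibroblasts and their progenitors and PDGFR-beta in pericytes and other mural cells. NG2, the product of Cspg4, is a membrane-spanning chondroitin sulfate proteoglycan of pericytes, oligodendrocyte progenitors and some mesenchymal cells that can bind PDGF-AA and collagen VI. Pdgfrl encodes a secreted protein that resembles the receptor's outer part and has no kinase.

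The promoter sequences below belong to the 4 genes past the filter on low values whose libraries did not overlap between the lines, and are shown so that a reader can compare what lies upstream of genes with lower levels (Pdgfra, Cspg4, Pdgfc) and of the gene with higher levels (Pdgfd) in the libraries labelled Nf2 KO. They were taken from RefSeq on GRCm38.p6, plus strand, 5′ to 3′, and end before the start of the gene in GENCODE. Of the 8 genes, 5 had an entry. The windows are chr5:75152001-75152250 for Pdgfra, chr9:56864854-56865032 for Cspg4, chr3:81036166-81036415 for Pdgfc and chr9:6168236-6168485 for Pdgfd. Capitals mark a match to 1 of 4 motifs searched on both strands: the TEAD motif GGAATG (reverse CATTCC), the GC box GGGCGG (reverse CCGCCC), the TATA box TATAAA (reverse TTTATA) and the AP-1 site TGAGTCA (reverse TGACTCA).
Pdgfra: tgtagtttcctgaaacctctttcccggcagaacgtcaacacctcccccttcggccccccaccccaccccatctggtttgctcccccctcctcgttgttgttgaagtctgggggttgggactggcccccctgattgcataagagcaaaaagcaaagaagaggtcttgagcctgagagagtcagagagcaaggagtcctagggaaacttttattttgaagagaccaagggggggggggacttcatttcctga
Cspg4: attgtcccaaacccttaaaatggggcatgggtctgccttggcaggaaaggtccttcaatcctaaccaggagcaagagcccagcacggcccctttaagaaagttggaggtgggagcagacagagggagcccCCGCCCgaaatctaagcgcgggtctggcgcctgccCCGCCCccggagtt
Pdgfc: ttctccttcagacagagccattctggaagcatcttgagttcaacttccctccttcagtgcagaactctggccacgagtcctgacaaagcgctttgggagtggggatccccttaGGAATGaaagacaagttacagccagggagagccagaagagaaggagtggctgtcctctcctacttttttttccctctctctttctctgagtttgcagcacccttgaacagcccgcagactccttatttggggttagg
Pdgfd: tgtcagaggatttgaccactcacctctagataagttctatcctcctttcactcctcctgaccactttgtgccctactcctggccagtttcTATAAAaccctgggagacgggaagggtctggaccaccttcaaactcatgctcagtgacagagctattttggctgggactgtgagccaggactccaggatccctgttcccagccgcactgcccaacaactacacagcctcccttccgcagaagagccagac
In the 250 bases before the RefSeq start, Cspg4 held the GC box on the minus strand with first bases 120 and 85 bases upstream. Pdgfc held the TEAD motif 137 bases upstream and Pdgfd the TATA box 160 bases upstream, each on the plus strand. The letters of the 4 motifs are not in the Pdgfra window. Among 32851 windows of this length from 27025 genes, 12.6% held the TEAD motif, 32.7% the GC box, 12.4% the TATA box and 4.46% the AP-1 site, so the matches are letters that many windows hold, and a match is a description and not a site. In the same 250 bases the CpG count was 12 for Cspg4, above the median of 6 over all windows, and was 4 for Pdgfra, 3 for Pdgfc and 3 for Pdgfd.

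Pdgfra (ENSMUSG00000029231.15), the alpha receptor, showed the widest gap between the lines of the 8 genes on the log2 scale. It was at 12.3, 5.22 and 11.7 RPKM in control replicates 1, 2 and 3 and at 1.42, 0.657 and 0.962 RPKM in the same replicates labelled Nf2 KO. The lowest control library thus lay well above the highest library labelled Nf2 KO, and replicate 2 was the lowest of its line in both. The means were 9.75 ± 3.93 (SD, n = 3) and 1.01 ± 0.386 RPKM (SD, n = 3). Within same-numbered pairs the control was 8.67-, 7.95- and 12.2-fold higher, and the difference on the log2(RPKM + 1) scale was -2.36 ± 0.39 (SE). These values rest on 127 to 7181 reads per library. The gene lies on chromosome 5 (GRCm38, 75152292 to 75198215, plus strand), and 6.5% of its exon bases are shared with other annotated genes.

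The beta receptor, Pdgfrb (ENSMUSG00000024620.11), was the most abundant of the 8 genes by mean RPKM in both lines, and its levels followed the replicate number. The control libraries held 24.9, 10.2 and 34.4 RPKM in replicates 1, 2 and 3, and those labelled Nf2 KO held 29.2, 8.92 and 34.5 RPKM. Replicate 2 was the lowest of each line and replicate 3 the highest, so the lines overlapped fully. The means were 23.2 ± 12.2 and 24.2 ± 13.5 RPKM (SD, n = 3 each). The log2 difference was 0.02 ± 0.76 (SE), where the error does not use the pairing. Within pairs the difference was 0.22, -0.17 and 0.00 (SD 0.197), a much narrower range than the spread across libraries of the same line. Pdgfrb lies on chromosome 18 (61045150 to 61085061, plus strand) and shares no exon bases with another gene.

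Pdgfrl (ENSMUSG00000031595.9), the receptor-like gene on chromosome 8 (40926212 to 40990785, plus strand), was at 2.45, 2.13 and 4.65 RPKM in the control libraries and at 6.53, 1.97 and 5.66 RPKM in those labelled Nf2 KO. The lines overlapped, and replicate 2 was again the lowest of each. The log2 difference was 0.43 ± 0.50 (SE), and it went from 0.08 without pair 1 to 0.85 without the replicate 2 library labelled Nf2 KO. Pair 1, at 2.67-fold, stood apart from the other pairs at 0.929- and 1.22-fold.

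NG2 RNA was lower in every library labelled Nf2 KO, with the smallest scatter between pairs of the 8 genes. Cspg4 (ENSMUSG00000032911.6) was at 11.8, 15.8 and 12.4 RPKM in the control libraries and at 5.67, 6.68 and 4.98 RPKM in those labelled Nf2 KO. Here replicate 2 was the highest of each line, the opposite of the receptors. The means were 13.3 ± 2.15 and 5.78 ± 0.855 RPKM (SD, n = 3 each), the pairs differed 2.08-, 2.36- and 2.49-fold, and the log2 difference was -1.08 ± 0.16 (SE). The SD of the pair differences was 0.12 on the log2 scale, against 0.40 for Pdgfra. Cspg4 lies on chromosome 9 (56865033 to 56899870, plus strand) and has the longest exon model of the set, 11931 bases, with 1223 to 9062 reads per library.

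**Figure D1:**
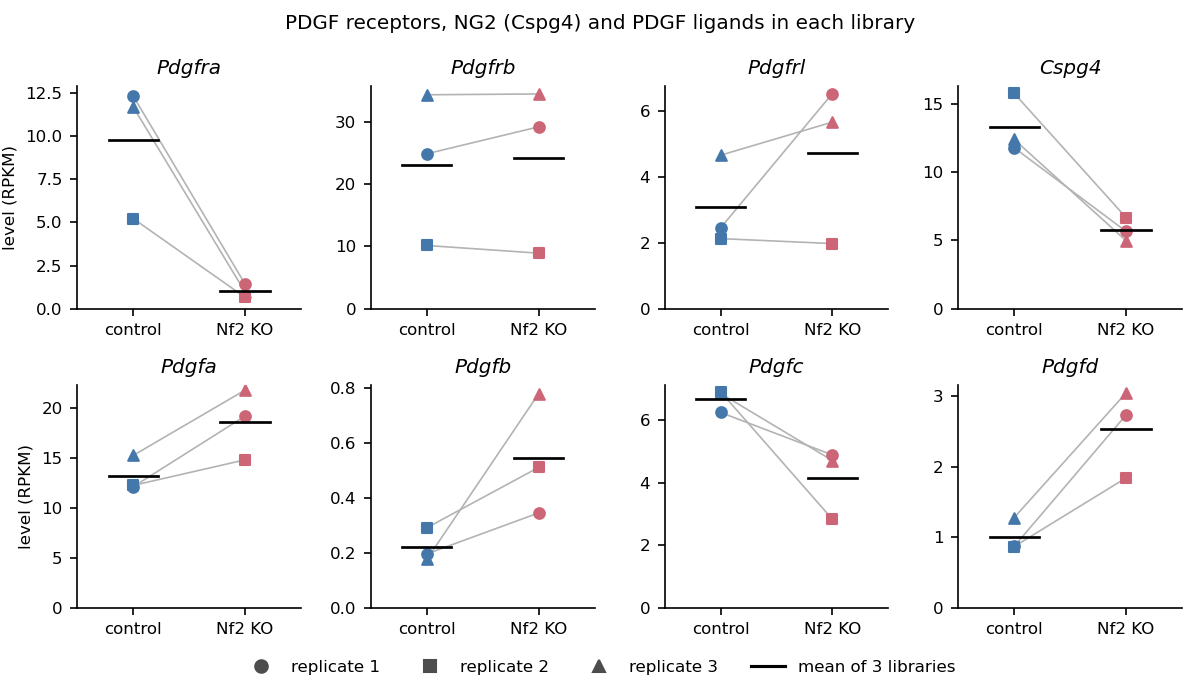
Level in RPKM (vertical axes, each from 0) of the 8 genes in the 3 control libraries and the 3 libraries labelled Nf2 KO; circles, squares and triangles are replicates 1, 2 and 3, gray lines join same-numbered libraries and black bars are means of 3 libraries. Pdgfra and Cspg4 sit lower in each library labelled Nf2 KO than in any control library, Pdgfd and Pdgfb sit higher, and Pdgfrb follows the replicate number, with replicate 2 near 10.2 and 8.92 RPKM.

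Among the ligands, Pdgfa and Pdgfc were the abundant chains and differed between the lines in opposite directions. Pdgfa (ENSMUSG00000025856.15, chromosome 5, 138976014 to 138997370, minus strand), encoding the A chain, was at 12.1, 12.3 and 15.3 RPKM in the control libraries and at 19.2, 14.8 and 21.8 RPKM in those labelled Nf2 KO. It was higher in 3 of 3 pairs, by 1.58-, 1.21- and 1.43-fold, although the highest control library lay just above the lowest library labelled Nf2 KO. The means were 13.2 ± 1.77 and 18.6 ± 3.53 RPKM (SD, n = 3 each), with a log2 difference of 0.45 ± 0.18 (SE). The opposite-strand gene 6330403L08Rik covers 26.1% of the exon bases of Pdgfa and averaged 2.56 and 2.39 RPKM in the 2 lines. Whether strand was used in counting is not stated, so reads of the pair cannot be told apart in that stretch.

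Pdgfc (ENSMUSG00000028019.9, chromosome 3, 81036416 to 81214040, plus strand), encoding the latent C chain, was at 6.25, 6.91 and 6.85 RPKM in the control libraries and at 4.89, 2.83 and 4.71 RPKM in those labelled Nf2 KO. The control libraries agreed closely, with an SD of 0.368 around 6.67 RPKM (n = 3), while those labelled Nf2 KO spread more, 4.14 ± 1.14 RPKM (SD, n = 3), with replicate 2 the lowest. The lines did not overlap. The log2 difference was -0.60 ± 0.20 (SE) and -0.38 without pair 2, a fall in size of over 1.5 times.

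The chains of low abundance, Pdgfd and Pdgfb, were both higher in every library labelled Nf2 KO than in any control library. Pdgfd (ENSMUSG00000032006.15, chromosome 9, 6168584 to 6378850, plus strand), the latent D chain, was at 0.871, 0.869 and 1.28 RPKM in the control libraries and at 2.73, 1.84 and 3.05 RPKM in those labelled Nf2 KO, a ratio of means of 2.52. Its log2 difference was 0.81 ± 0.18 (SE) with a pseudocount of 1 and 1.25 with a pseudocount of 0.1, since the larger pseudocount compresses low values. Pdgfb (ENSMUSG00000000489.7, chromosome 15, 79995874 to 80014977, minus strand), the B chain, was at 0.196, 0.291 and 0.177 RPKM in the control libraries and at 0.345, 0.511 and 0.779 RPKM in those labelled Nf2 KO. The pair ratios were 1.76, 1.75 and 4.41, and replicate 3, the deepest, gave the widest one. Pdgfb was read from 11 to 237 reads per library and was the only gene of the set under the filter of 1 RPKM in 3 libraries.

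Set against all genes, 2 of the 7 genes past the filter, Pdgfra and Cspg4, were past an adjusted p of 0.05 in the limma fit between the lines, where 1.06% of the 11067 genes tested were. With the replicate number as a block, which uses the pairing, 4 of the 7 were (Pdgfra, Pdgfa, Pdgfd and Cspg4), against 7.53% of all genes. The libraries of the lines did not overlap for 4 of these 7 genes, and for 5 of the 8 with Pdgfb, against 15.1% of all genes tested. Since the genes were selected on this same contrast, nothing is read from these counts. Pdgfra passed the filter through the control libraries and Pdgfd mainly through those labelled Nf2 KO. In bulk RNA, fewer cells that express a gene and less RNA per cell cannot be told apart.

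**Figure D2:**
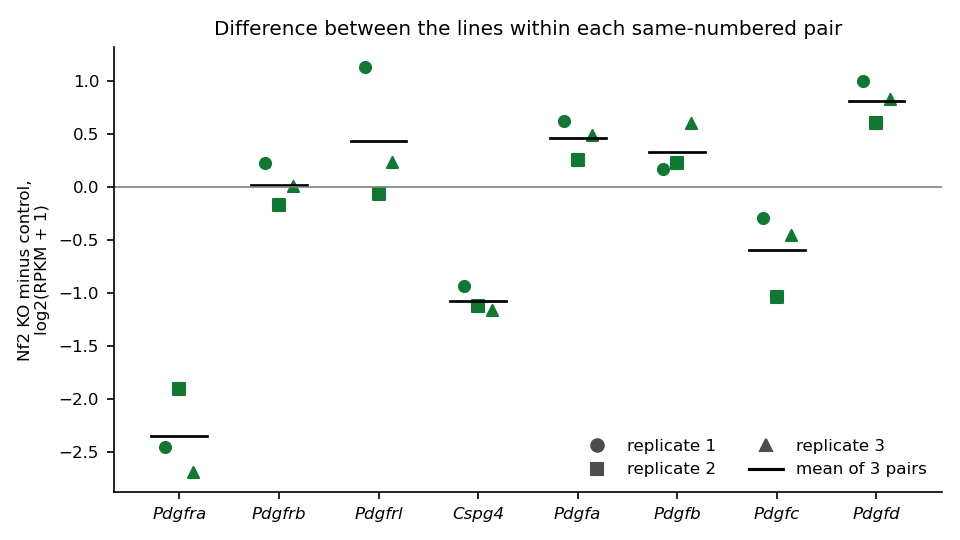
Difference between the lines on the log2(RPKM + 1) scale (vertical axis, Nf2 KO label minus control) within each same-numbered pair for the 8 genes; circles, squares and triangles are pairs 1, 2 and 3 and bars are means of 3 pairs. All pairs lie below 0 for Pdgfra, Cspg4 and Pdgfc, all lie above 0 for Pdgfa, Pdgfb and Pdgfd, and those of Pdgfrb lie within 0.22 of 0.

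The make-up of the receptor and ligand RNA differed between the lines more than its sum. Pdgfra gave 33.1%, 34.0% and 25.4% of the summed RPKM of both kinase receptors in the control libraries and 4.64%, 6.86% and 2.71% in those labelled Nf2 KO. The groups stood far apart in this share, while replicate 2, low in both receptors, had about the same share as replicate 1 in the controls. The sum itself was 37.2, 15.4 and 46.1 RPKM in the control libraries and 30.7, 9.58 and 35.5 RPKM in those labelled Nf2 KO. The lines overlapped in this sum, although it was lower with the Nf2 KO label in each same-numbered pair. Pdgfrb exceeded Pdgfra 2.30 ± 0.55-fold in the control libraries and 23.3 ± 11.4-fold in those labelled Nf2 KO (SD, n = 3 each).

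The 4 ligands summed to 21.1 ± 2.17 RPKM in the control libraries and to 25.8 ± 5.29 RPKM in those labelled Nf2 KO (SD, n = 3 each), and the sums overlapped, since replicate 2 labelled Nf2 KO lay within the control range. Pdgfc gave 31.7 ± 2.48% of the sum in the control libraries and 15.9 ± 1.94% in those labelled Nf2 KO (SD, n = 3 each), and its share in each control library was above that in any library labelled Nf2 KO. The share of Pdgfa was 62.5 ± 2.22% and 72.2 ± 1.73%, that of Pdgfd 4.73 ± 0.613% and 9.77 ± 0.489%, and that of Pdgfb 1.06 ± 0.345% and 2.13 ± 0.745%. Between the latent chains, Pdgfc exceeded Pdgfd 6.83 ± 1.33-fold in the control libraries and 1.62 ± 0.14-fold in those labelled Nf2 KO. These shares are of RNA per exon length and say nothing of the amount of protein.

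**Figure D3:**
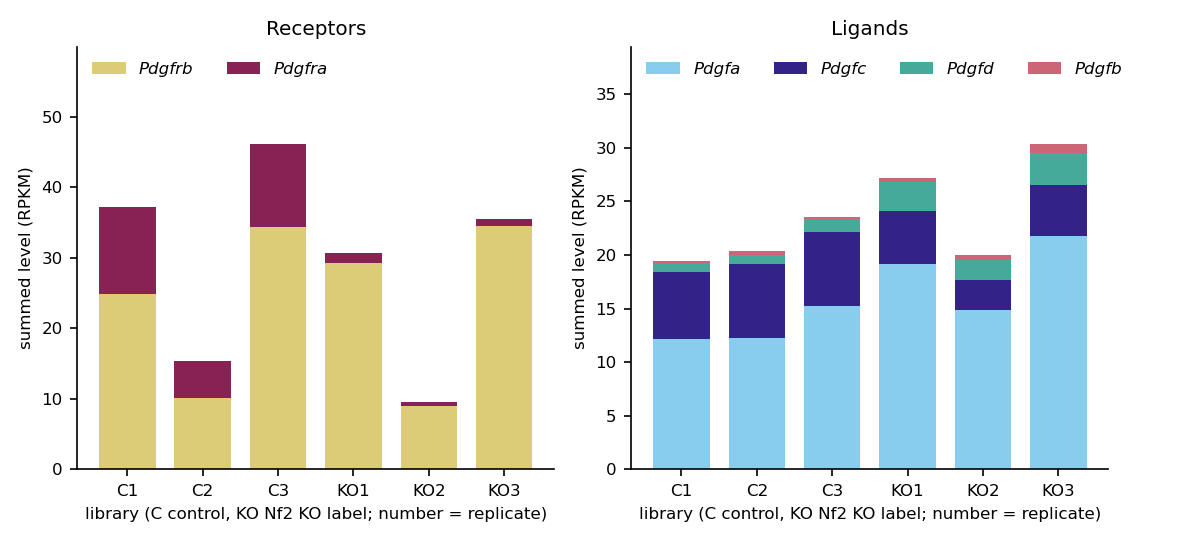
Summed level in RPKM (vertical axes, from 0) of the kinase receptors (left) and of the 4 ligands (right) in each library, stacked by gene; C1 to C3 are control replicates and KO1 to KO3 the replicates labelled Nf2 KO. The Pdgfra part shrinks from 25.4% to 34.0% of the receptor bar in control libraries to 2.71% to 6.86% in those labelled Nf2 KO, and the Pdgfc part of the ligand bar is smaller there too.

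By mean RPKM the order in the control line was Pdgfrb, Cspg4, Pdgfa, Pdgfra, Pdgfc, Pdgfrl, Pdgfd and Pdgfb. Neighbors from Pdgfrb down to Pdgfc overlapped across libraries, whereas Pdgfc, Pdgfrl, Pdgfd and Pdgfb were separated from each other in all 3. In the line labelled Nf2 KO the order was Pdgfrb, Pdgfa, Cspg4, Pdgfrl, Pdgfc, Pdgfd, Pdgfra and Pdgfb. Only the steps from Pdgfa to Cspg4 and from Pdgfd to Pdgfra were free of overlap there. Pdgfra thus stood above Pdgfc, Pdgfrl and Pdgfd in the control line and below them in the line labelled Nf2 KO.

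Replicate number, independent of how the genes were selected, was tested with limma's F test over the 3 numbers with line as a covariate. Pdgfrb was past the threshold (adjusted p = 0.00464), 1 of the 7 genes tested, where 21.2% of all genes were. Replicate 2 differed from the mean of replicates 1 and 3 by -1.58 on the log2(RPKM + 1) scale, with values of -1.44 in the control line and -1.72 in the line labelled Nf2 KO. The call was lost without pair 2 (adjusted p = 0.551), when 0 of all 11067 genes passed limma's F test. At an unadjusted p under 0.05, 2 of the 7 genes and 8.32% of all genes were found in that fit.

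The other receptor genes lay lower in replicate 2 as well, by -0.73 for Pdgfra (adjusted p = 0.0590) and -0.87 for Pdgfrl (adjusted p = 0.0912), and missed limma's threshold. Cspg4 was higher there by 0.32 (adjusted p = 0.0650). The ligands Pdgfa, Pdgfc and Pdgfd differed by -0.29, -0.26 and -0.30 (adjusted p = 0.0788, 0.434 and 0.125 by limma). For Pdgfc the lines went in opposite directions, 0.07 in the control line and -0.60 in the line labelled Nf2 KO, which was not tested as a difference between them. An unadjusted p under 0.05 was reached by 5 of the 7 genes, where 40.7% of all genes reached it. Some of these calls turned on the settings: Pdgfra passed with a pseudocount of 0.1, with a filter of 5 RPKM and with voom, limma's fit for read counts, run here on reads rebuilt from the RPKM steps after seeing the data, and Cspg4 passed with quantile normalization, with median centring and with voom.

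**Figure D4:**
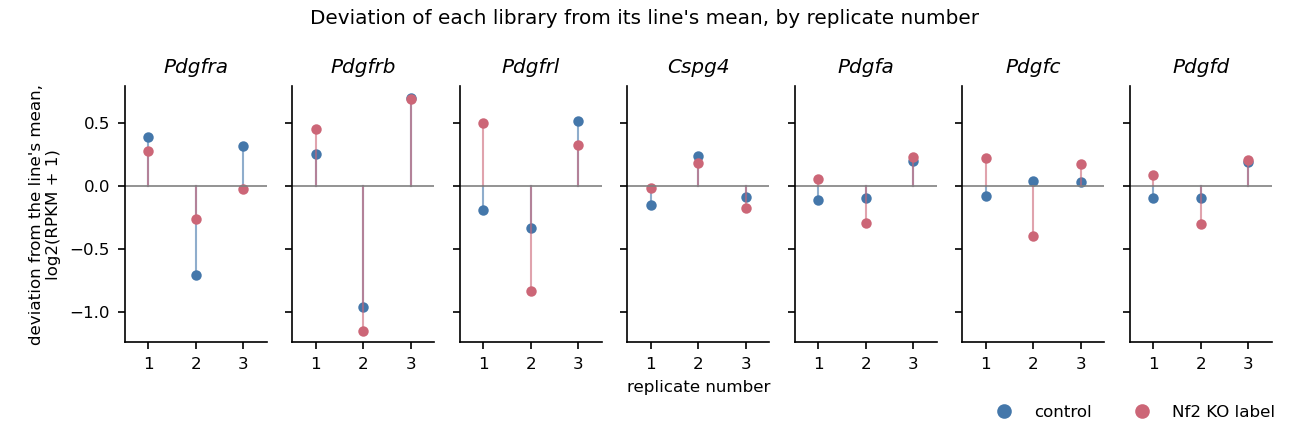
Deviation of each library from its line's mean on the log2(RPKM + 1) scale (vertical axis) by replicate number (horizontal axis) for the 7 genes tested; blue points are control libraries and red points those labelled Nf2 KO. For Pdgfrb replicate 2 is the lowest and replicate 3 the highest in both lines, and for Cspg4 replicate 2 is the highest in both lines.

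Some markers of cell types also differed between replicate numbers, and 21.2% of all genes passed that test. Fibroblast markers summed to 2787 to 3581 RPKM in the control libraries and 1985 to 2585 RPKM in those labelled Nf2 KO, with replicate 2 the lowest of each line. Of the 10 fibroblast markers 9 reached 1 RPKM in 3 libraries, led by Vim at 536 to 882 RPKM. Dcn (decorin) did so through the control libraries alone, at 2.57, 1.60 and 4.01 RPKM, and was near absent at 0.133, 0.0266 and 0.113 RPKM in those labelled Nf2 KO, and Lum (lumican) stayed under 1 RPKM in all 6 libraries. Fn1 and S100a4 were past limma's threshold between the lines, each lower in the libraries labelled Nf2 KO, where 1.06% of all genes passed. No call is read for Dcn, which met the filter only where it was high. P4hb overlapped between the lines, at 336 to 354 RPKM in the control libraries and 294 to 379 RPKM in those labelled Nf2 KO. For the replicate number 4 of the 9 were past limma's threshold. Col1a1, Col1a2 and Col3a1 had replicate 2 as the lowest of each line and Thy1 had it as the highest, so the fibroblast markers did not move together.

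Pericyte and mural cell markers summed to 322 to 1648 RPKM in the control libraries and 654 to 2097 RPKM in those labelled Nf2 KO, and replicate 2 was the highest of each line, at 1648 and 2097. The sum was mostly Acta2, at 302 to 2066 RPKM. Of the 5 that reached 1 RPKM in 3 libraries, 4 (Mcam, Anpep, Cnn1 and Acta2) were past limma's threshold for the replicate number, in different directions. Replicate 2 was the highest of each line for Acta2 and Cnn1 and the lowest of each line for Anpep, at 1.29 and 0.589 RPKM, and Mcam was highest in replicate 3. Between the lines none of the 5 was past limma's threshold without the block, where 1.06% of all genes were. With the block Acta2 was, higher by 0.72 on the log2 scale with the Nf2 KO label (adjusted p = 0.0488 by limma), where 7.53% of all genes were. The others are not given with the block. Acta2 and Mcam were higher and Anpep lower with the Nf2 KO label in each same-numbered pair, and Notch3 and Cnn1 differed in both directions. The more restricted pericyte and smooth muscle markers Rgs5, Kcnj8, Abcc9, Des and Myh11 stayed under 1 RPKM in all 6 libraries. The part of these differences in the levels of Pdgfrb, Pdgfra and Cspg4 was not tested. Oligodendrocyte progenitor markers summed to at most 1.80 RPKM, endothelial markers to at most 5.27 RPKM and macrophage markers to at most 12.0 RPKM in any library, with Ptprz1, Kdr and Cd68 the highest of each. The oligodendrocyte progenitor sum, from the 5 of 8 listed markers that had values, was 0.253 to 0.794 RPKM in the control libraries. It was 1.32 to 1.80 RPKM in those labelled Nf2 KO, mostly Ptprz1 at 1.22 to 1.71 RPKM. For the replicate number, Kdr was past limma's threshold, and no tested oligodendrocyte progenitor (1) or macrophage (2) marker was.

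The genes around the PDGF receptors and NG2 were read from 6 lists written by hand with earlier results of these data known, so their counts are a description and no independent support: proteases and matrix proteins that mature or hold PDGFs, receptor partners, receptor-proximal signaling, inhibitors and turnover, NG2 partners and sheddases, and the related growth factors and class III receptor kinases. Of their 95 genes in the table, 84 were tested, and 2 of them (2.38%) were past the limma threshold between the lines, both lower in the libraries labelled Nf2 KO, beside 1.06% of all genes. With the replicate block 23 were (27.4%), 6 higher and 17 lower, beside 7.53% of all genes. The median log2 difference over the 84 genes was -0.09, against -0.01 over all genes tested, and 26 of the 84 had an unadjusted p under 0.05, where 9.91% of all genes did.

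The 2 genes past the threshold were both partners of NG2. Col6a3, the alpha-3 chain of the NG2 ligand collagen VI, was lower at 0.947 ± 0.369 RPKM, against 17.9 ± 4.32 RPKM in the control libraries (SD, n = 3 each), and its log2 difference was -3.27 ± 0.22 (SE, adjusted p = 0.00392 by limma). It met the filter through the control libraries, since only replicates 1 and 3 labelled Nf2 KO reached 1 RPKM, and its adjusted p without the filter was 0.0314 by limma. Prkca, protein kinase C alpha, which phosphorylates the NG2 cytoplasmic tail, fell from 10.3 ± 1.39 to 4.66 ± 0.0621 RPKM, a log2 difference of -0.99 ± 0.11 (SE, adjusted p = 0.0223 by limma). The call of Prkca was lost without replicate 1 or replicate 3 of either line (adjusted p of at least 0.0965) and without the filter on low values (0.107), and that of both genes without pair 1 or pair 3 (0.253 to 0.512), when no gene of the lists passed. With the block, Col6a1 and Col6a2, the other collagen VI chains of the list, also fell (-0.91 and -0.90), as did Lgals3, the NG2-binding galectin-3 (-1.18, adjusted p = 0.0286, 0.0141 and 0.0198 by limma). With the block, 5 of the 11 genes of this list were lower, where 502 of all 11067 genes were, and the list's median was -0.31.

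In each of the lists that follow, the shares over all genes to read beside the counts are 1.06% without the block, 7.53% with it and 9.91% at an unadjusted p under 0.05 without it. Among the inhibitors and turnover genes, 0 of 17 passed without the block (6 at an unadjusted p under 0.05 in limma) and 6 passed with it, 5 lower and 1 higher. The genes that fell in the paired fit were Errfi1, a feedback inhibitor of ERBB receptors (-1.44 on the log2 scale), Lrig1, a membrane protein that restrains several receptor kinases (-0.76), the Sprouty genes Spry4 (-0.66) and Spry2 (-0.64), and Spred2 (-0.52, adjusted p = 0.0109 to 0.0224 by limma with the block). Spry4 met the filter through the control libraries, where it was high, since only replicate 2 labelled Nf2 KO reached 1 RPKM. Nothing is read from its call, which is counted among the 5 lower here and the 17 lower over all lists with the block. Spry1, of the same Sprouty family, rose by 0.63 (adjusted p = 0.0426).

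Receptor-proximal signaling had the tightest values of the 6 lists, from -0.51 to 0.52 on the log2 scale over 27 genes, with none past limma's threshold without the block (5 at an unadjusted p under 0.05). In the paired fit Pik3cb, a PI3 kinase catalytic subunit, rose by 0.52 and the adaptor Gab1 by 0.38, while Rasa1, a Ras GTPase activator, and the kinase Fyn fell (-0.51 and -0.45, all with an adjusted p = 0.0127 to 0.0474 by limma with the block). Of the 12 receptor partners, 0 passed without the block (3 unadjusted in limma) and 4 with it. Caveolin-1 (Cav1) and the scaffold Slc9a3r2 rose by 0.91 and 0.34, and the hyaluronan receptor Cd44 and integrin Itgb3 fell (-0.76 and -0.49, all with an adjusted p = 0.0105 to 0.0463 by limma with the block).

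In the protease and matrix list, Thbs1 (thrombospondin-1) passed with the block, higher by 1.69 on the log2 scale (271 ± 180 and 761 ± 97.3 RPKM, adjusted p = 0.0335 by limma), and 0 of 9 genes passed without it (3 unadjusted). The related growth factors had 0 of 8 genes past limma's threshold without the block (3 unadjusted) and 3 lower with it. The lymphangiogenic factor gene Vegfd fell (-1.10), as did the Kit ligand gene Kitl (-1.01) and Vegfa (-0.42, adjusted p = 0.0233, 0.00615 and 0.0279 by limma with the block). The count of genes past the threshold was higher with the pairing in each of the 6 lists.

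**Figure D5:**
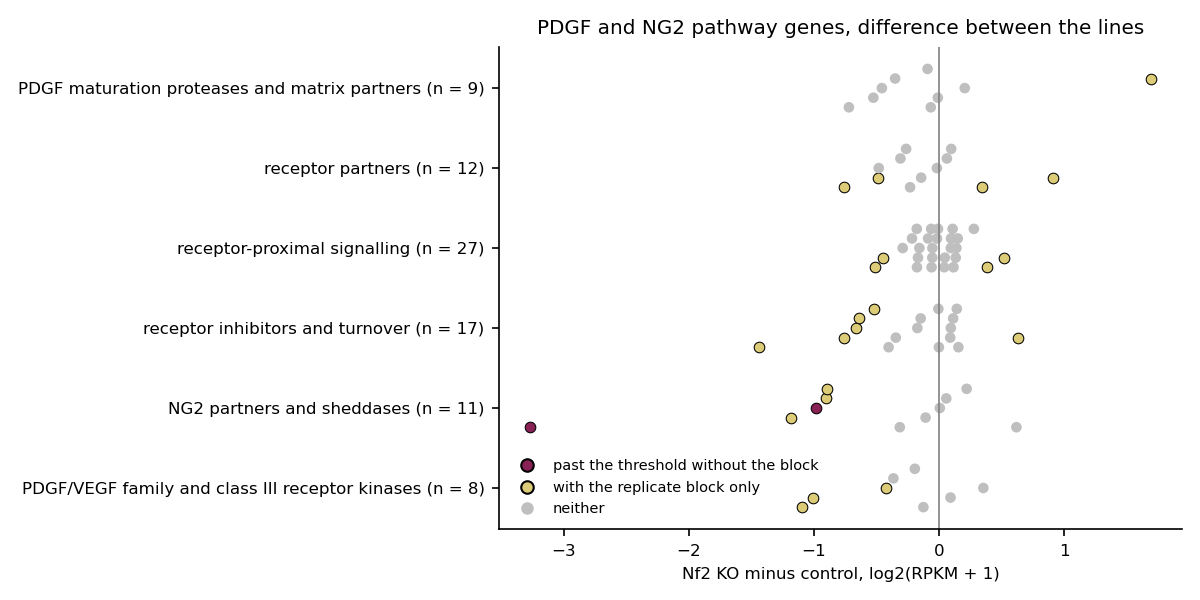
Difference between the lines on the log2(RPKM + 1) scale (horizontal axis, Nf2 KO label minus control) for the 84 tested genes of the 6 lists, 1 point a gene; dark red points passed the limma threshold without the replicate block, yellow points only with it and gray points in neither fit. The 2 dark red points, at -3.27 and -0.99, are the NG2 partners Col6a3 and Prkca, and the signaling genes cluster around 0.

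Genes with the most similar profile over the 6 libraries were looked up among the 7024 tested genes whose mean reached 5 RPKM, by Pearson's r of log2(RPKM + 1), as a description over libraries that share depth and replicate number. Ctsb (r = 0.996), Spp1 (0.995) and Chst1 (0.990) were closest to Pdgfra, and Spp1, encoding the matrix protein osteopontin, was at 62.5 ± 26.8 RPKM in the control libraries and 8.51 ± 2.11 RPKM in those labelled Nf2 KO (SD, n = 3 each). Hsd17b4 (0.998), Ap3b1 (0.997) and Med16 (0.997) were closest to Pdgfrb and, like it, had nearly equal means in both lines (19.8 and 19.8 RPKM for Hsd17b4). Sh3glb1 (0.996), Ifi27 (0.991) and Nr2f2 (0.990) were closest to Cspg4. Pearson's r does not measure the size of a difference. Ctsb averaged 61.1 RPKM in the control libraries and 36.2 RPKM in those labelled Nf2 KO, and Sh3glb1 averaged 36.76 and 33.65 RPKM.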

How the data were processed

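RNA of 6 MEF libraries was sequenced and processed by GENEWIZ. The table deposited by the authors gives 1 value for each gene in each library, taken here as RPKM, with no counts. The submitters' processing notes name mm10. The aligner, counting tool and use of strand are not given in the sources used here. The unit was inferred: with exon lengths of GENCODE vM21 (GRCm38; 25986 of 26231 symbols matched), 86.0% to 87.6% of values up to 20 reads were whole multiples of 1 read within 0.1, against 39.2% to 41.5% at shifted depths. These steps gave 13460662 to 73071729 reads per library, with no statement on whether single reads or read pairs were counted.

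Values were set to log2(RPKM + 1). Genes that reached 1 RPKM in 3 or more libraries (11067) entered two-sided tests with limma 3.58.1 in R 4.3.3 (eBayes, trend and robust). P-values were adjusted by Benjamini-Hochberg across these 11067 genes, with a threshold of 0.05. SE of the differences of the 8 genes are ordinary standard errors from 3 libraries a line that do not use the pairing, and SE of other genes come from limma. The members and lists were chosen with earlier results of these data known. Genes named are the members, Nf2 and list genes past the threshold with or without the block. The 3 genes most similar to Pdgfra, Pdgfrb and Cspg4 and the highest gene of each marker list are also named. Other marker genes were named after their values were seen. Deviations of same-numbered libraries correlated across genes at 0.552, 0.819 and 0.516 for replicates 1, 2 and 3. The numbers, which come from the labels, were used as pairs. Deviations from a line's mean cancel within the line, so a shift shared by the replicate 2 libraries alone also raises the values of replicates 1 and 3. The correlations thus cannot show that replicates 1 and 3 were paired. Without pair 2, 0 of the 11067 genes passed limma's F test for the replicate number. Figures were drawn with matplotlib 3.10.9 in Python 3.11.15.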

Additional observations from a re-analysis of the deposited data

How the results depend on the processing

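Between the lines, 117 genes and 2 list genes passed in the unpaired limma fit. The replicate block gave 833 and 23, no filter on low values 9 and 1, a filter of 5 RPKM 63 genes, the library mark of replicate 3 in the labels as a covariate 62 genes, and leaving out 1 library or 1 pair 0 to 484 genes and 0 to 14 list genes. The counts of 0 came without pair 1 and without pair 3, with 578 and 556 genes at an unadjusted p under 0.05 in limma, and the count was 484 without pair 2. For the replicate number, 1 of the 7 genes tested passed, beside 21.2% of all genes. A pseudocount of 0.1, a filter of 5 RPKM, quantile normalization and median centring each gave 2 (16.5% to 25.4% of all genes), voom in limma on read numbers rebuilt from the steps, an alternative chosen after seeing the data, gave 3 (21.8%), no filter gave 0 (0% of all genes, and 3 of the 8 genes and 19.4% of all genes unadjusted in limma), and leaving out 1 library or 1 pair gave 0 to 4 (0% to 24.4%). The difference of Pdgfrb, near 0, ran from -0.46 without control replicate 2 to 0.59 without replicate 2 labelled Nf2 KO. It turned to -0.21 and -0.33 without replicates 1 and 3 labelled Nf2 KO. Leaving out 1 library unbalances the replicate numbers between the lines, so these fits also hold the shift of replicate 2. Without pair 1, 2 or 3 the difference of Pdgfrb was -0.08, 0.11 and 0.03. The other 6 genes past the filter kept their direction in all 9 fits that left out a library or pair, at -2.71 to -2.16 for Pdgfra, -1.17 to -0.96 for Cspg4 and 0.08 to 0.85 for Pdgfrl. With a pseudocount of 0.1 and with voom, Pdgfra was at -3.11 and -3.24 and Pdgfd at 1.25 and 1.31. The causes were not tested. Pdgfb rested on 11 to 45 reads in the control libraries, which limits the precision of its ratios.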
